A study of Mus musculus with 8 samples.

Results

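Expression of 9 genes that mark eosinophils was examined in bulk RNA-Seq libraries of murine MKs. The genes were Prg2, Prg3, Epx, Ear1, Ear2, Ear6, Siglecf, Ccr3 and Il5ra, out of 13387 genes in the table. All 9 had a row and passed the filter on low counts, as did 11722 genes in all. The genes were chosen from known eosinophil granule proteins and receptors, and selected on their lower level in cocultures of the same libraries. The difference between cultures is therefore given for these genes as a description without a test.

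All cells were primary C57BL/6 wild-type bone marrow cells. In 4 libraries MKs were cultured alone, and in 4 libraries they were cultured with bone marrow MSCs sorted as CD45-Ter119-CD31-CD51+PDGFRα+. Both cultures lasted 18 hours, and the methods give a medium with thrombopoietin. The MKs were enriched from flushed marrow with CD41 antibody and magnetic beads and were removed from the adherent MSCs by hand, so other marrow cells can be present in either culture. The labels give the libraries as MKs separated from platelets, whereas the methods describe platelets pooled from several wells, and 4 mice are stated for each group.

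Eosinophils are granulocytes that develop in bone marrow under IL-5. Their granules are filled with cationic proteins, made mainly by precursor cells, that are toxic to parasites and host tissue. Prg2 encodes major basic protein, which forms the crystalline core of the granule, and Prg3 encodes a related major basic protein. Epx encodes eosinophil peroxidase, which makes hypohalous acids. Ear1, Ear2 and Ear6 encode eosinophil-associated ribonucleases. On the surface, Il5ra encodes the alpha chain of the IL-5 receptor, Ccr3 the receptor for eotaxins and Siglecf an inhibitory lectin that mature eosinophils carry. Some of these genes are not restricted to eosinophils, since Siglecf is also found on alveolar macrophages and Ear2 in monocytes.

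Sequence similarity decides how well reads can be assigned to the 3 ribonuclease genes, and the starts of their coding sequences are shown for that reason. Ear1, Ear2 and Ear6 lie on chromosome 14 (GRCm38), at chr14:43818765-43875517, chr14:44102654-44103534 and chr14:51853699-51854643. The first 60 bases of the longest open reading frame in the GENCODE transcripts are given 5′ to 3′, and capitals mark bases that differ from Ear1.
Ear1: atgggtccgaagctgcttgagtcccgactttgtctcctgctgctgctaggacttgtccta
Ear2: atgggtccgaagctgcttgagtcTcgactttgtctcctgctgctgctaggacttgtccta
Ear6: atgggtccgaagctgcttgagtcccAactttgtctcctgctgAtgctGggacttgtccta
Over 465 aligned coding bases, Ear2 differed from Ear1 at 20 positions (95.7% identity) and Ear6 at 59 (87.3% identity). Of all stretches of 31 bases in the Ear1 transcripts, 73.6% also occurred in transcripts of other genes, among them Ear2 and pseudogenes of the family. The corresponding shares were 60.5% for Ear2 and 8.48% for Ear6. The Ear1 gene also overlaps annotated pseudogenes on its own strand, and Ear2 overlaps a noncoding RNA gene on the other strand. The division of reads between Ear1 and Ear2 is thus uncertain. Prg2 (chr2:84980461-84983632) and Prg3 (chr2:84988215-84993886) are neighbors 4582 bases apart, and neither they nor Epx (chr11:87864000-87875536) shared any stretch of 31 bases with another gene. Siglecf (chr7:43351341-43359531), Ccr3 (chr9:124021972-124031689) and Il5ra (chr6:106710357-106749037) shared 0.872%, 0.524% and 4.3%.

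Library totals ran from 4939874 to 12523616 counts, so that 3 counts were worth 0.284 to 0.662 CPM, the unit of counts scaled to library size with TMM factors. Replicate 3 of the cocultures stood apart, with 10735 genes detected against 13104 to 13193 in the other cocultures and 12406 to 12622 in MKs cultured alone. This library had the highest total, 12523616 counts, and a TMM factor of 0.764. Results that rest on it are also given without it. All 15 MK and platelet markers examined were present, at a summed 4700 to 7573 CPM in MKs cultured alone and 3557 to 4324 CPM in cocultures. None of them met the cutoffs for a changed gene by edgeR's test, and 3 were lower in every coculture, a share close to the 21.1% of all genes. Without replicate 3 of the cocultures 1 marker was called higher and 1 lower. Rap1b, a small GTPase of platelets, was the highest of them and was called lower in 3 of the alternatives. It had 3835 ± 1096 CPM (SD, n = 4) in MKs cultured alone and 1979 ± 368 CPM in cocultures. Rap1b held most of the marker sum in MKs cultured alone, with 2826 to 5349 CPM. The separation of the summed levels between cultures therefore rests on this gene. Pf4, the next highest marker, had 841 ± 210 CPM in MKs cultured alone and 1070 ± 362 CPM in cocultures.

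In MKs cultured alone, transcripts of eosinophil granule proteins were abundant. Prg2 had 713, 1331, 1144 and 951 CPM in replicates 1 to 4. On the scale of CPM per kilobase of exon, Prg2 reached 1235 ± 316 (SD, n = 4), a level above 99.8% of genes. Ear2 followed at 129 ± 11.8, Prg3 at 94.3 ± 31.3, Ear1 at 91.0 ± 16.4, Epx at 50.8 ± 13.6 and Ear6 at 45.0 ± 4.89 CPM per kilobase. Prg2 exceeded every other gene of the group in every library of MKs cultured alone. The ranges of Ear2 and Prg3, of Prg3 and Ear1, and of Epx and Ear6 overlapped. The surface genes were lower, with Siglecf at 13.5 ± 1.60, Il5ra at 4.11 ± 1.02 and Ccr3 at 0.453 ± 0.310 CPM per kilobase, and their ranges did not overlap. Il5ra lay near the middle of all genes, above 50.4% of them on this scale, and Ccr3 above 18.9%.

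The 4 libraries of MKs cultured alone did not vary in the same way for all of these genes. Replicate 1 had the lowest level of the major basic proteins and the peroxidase, at 0.689 times the group mean for Prg2, 0.654 times for Prg3 and 0.608 times for Epx. The same library had the highest level of Ear1, Ear2, Ear6 and Siglecf, at 1.15, 1.10, 1.13 and 1.12 times their means. The major basic proteins and the peroxidase thus differed in direction from the ribonucleases and Siglecf in this library. The ratio of Prg2 to Siglecf counts was 16.9 in replicate 1 and 38.4, 34.7 and 23.5 in replicates 2 to 4. Of 15 neutrophil markers, 10 were also lowest in replicate 1, and 3 were highest there. Mpo, which encodes myeloperoxidase, was among the former, with 2119 CPM in replicate 1 and 3337 to 3716 CPM in the other libraries. S100a8, which encodes a calcium-binding protein of neutrophils, was among the latter, at 53730 CPM against 44169 to 51505 CPM. This pattern was noticed after the values were seen and was not tested.

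**Figure D1:**
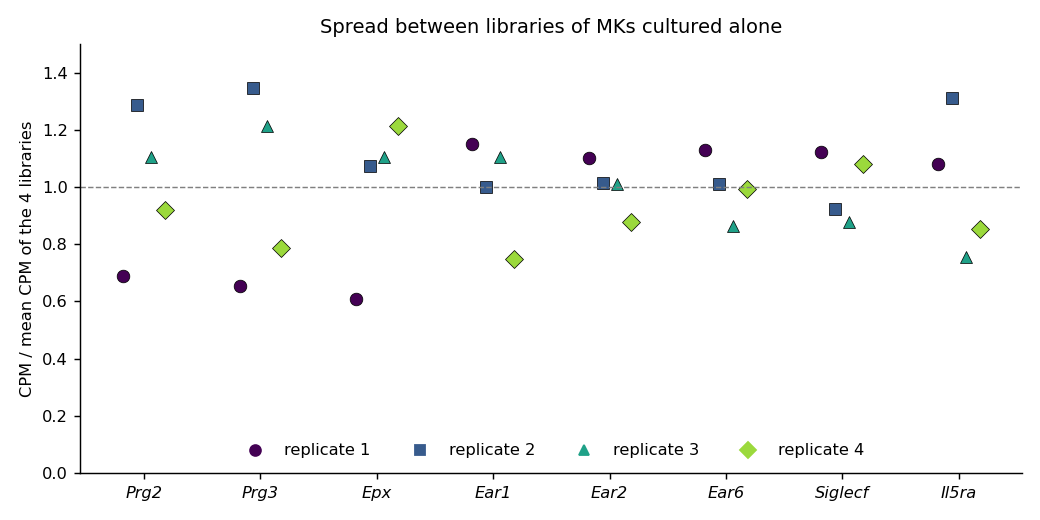
CPM of 8 eosinophil genes in each library of MKs cultured alone, divided by the mean of the 4 libraries (y axis, ratio). Symbols mark replicates. Replicate 1 lies between 0.608 and 0.689 for Prg2, Prg3 and Epx and between 1.10 and 1.15 for the 3 Ear genes and Siglecf. Ccr3 is left out because it had between 1 and 19 counts.

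In cocultures, 8 of the 9 genes were lower in every library than in any library of MKs cultured alone, and the exception was Ccr3. Of all genes tested, 21.1% showed this separation. The summed level of the 9 genes was 1143, 1859, 1656 and 1417 CPM in MKs cultured alone and 43.2, 54.7, 13.5 and 70.1 CPM in cocultures. Fewer cells of a type and less RNA per cell cannot be told apart in bulk libraries.

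For the granule core proteins, Prg2 had 23.6, 30.9, 9.94 and 44.1 CPM in the 4 cocultures. The group mean was 38.2 times lower than the 1035 ± 265 CPM (SD, n = 4) of MKs cultured alone, and the fitted log2 fold change was -5.26 ± 0.49 (SE). Prg3 had 58.5, 120, 109 and 70.4 CPM in MKs cultured alone and 2.56, 1.95, 1.15 and 3.47 CPM in cocultures. Its mean was 39.2 times lower. The groups were far apart for both genes, since the lowest library of MKs cultured alone exceeded the highest coculture 16.2 times for Prg2 and 16.9 times for Prg3. The ratio of Prg2 to Prg3 stayed between 10.5 and 13.5 in MKs cultured alone and between 8.64 and 15.8 in cocultures, so these neighboring genes were lower by similar factors.

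Epx had 84.5, 149, 154 and 169 CPM in MKs cultured alone. In cocultures it had 2.37, 7.68, 2.09 and 10.1 CPM, and its mean was 25.1 times lower. Coculture replicates 2 and 4 were above replicates 1 and 3, and none came within 8.402 times of the lowest library of MKs cultured alone. The fitted log2 fold change was -4.66 ± 0.59 (SE).

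The ribonuclease genes held fewer counts in cocultures. Ear1 had 76.4, 66.5, 73.3 and 49.6 CPM in MKs cultured alone and 3.03, 1.95, 0 and 3.30 CPM in cocultures. Ear2 had 102, 93.6, 93.3 and 81.2 CPM in MKs cultured alone and 3.03, 4.56, 0 and 3.99 CPM in cocultures. Ear6 had 48.1, 43.0, 36.8 and 42.3 CPM in MKs cultured alone and 3.41, 2.34, 0.209 and 0.867 CPM in cocultures. Replicate 3 of the cocultures had no count of Ear1 or Ear2, which allows up to 0.314 CPM there by counting error alone. The means were 32.1, 31.9 and 24.9 times lower for Ear1, Ear2 and Ear6, and 24.1, 23.9 and 19.3 times lower without that library. The similar values of Ear1 and Ear2 are not independent because of their shared sequence.

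Among surface genes, Siglecf had 42.2, 34.6, 32.9 and 40.5 CPM in MKs cultured alone and 1.42, 1.43, 0 and 0.694 CPM in cocultures. Its mean was 42.3 times lower, and 31.8 times lower without replicate 3 of the cocultures. With all libraries this was the highest ratio of the 9 genes, and without that library Prg3 was higher, at 33.6. Il5ra had 15.9, 19.3, 11.1 and 12.53 CPM in MKs cultured alone and 0.379, 0.912, 0.105 and 2.43 CPM in cocultures, a mean 15.4 times lower. Both genes were close to the detection limit in cocultures, where Siglecf had between 0 and 15 counts and Il5ra between 1 and 14. For Il5ra, the fitted log2 fold change of -3.97 ± 0.89 (SE) became -4.93 without replicate 4 of the cocultures.

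Ccr3 did not have the pattern that the other genes shared. It had 11, 12, 19 and 1 counts in MKs cultured alone and 36, 23, 0 and 7 counts in cocultures, which correspond to 2.43, 1.24, 2.11 and 0.163 CPM and to 3.41, 2.996, 0 and 1.21 CPM. The groups overlapped, and the fitted log2 fold change was 0.37 ± 1.14 (SE). It was negative without replicate 4 of MKs cultured alone or without replicate 1 of the cocultures. The name of the group as genes lost in coculture therefore holds for 8 of the 9 genes. Hrh4, a histamine receptor of eosinophils, had between 0 and 3.20 CPM in MKs cultured alone, whereas Siglecf had at least 32.9 CPM there.

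**Figure D2:**
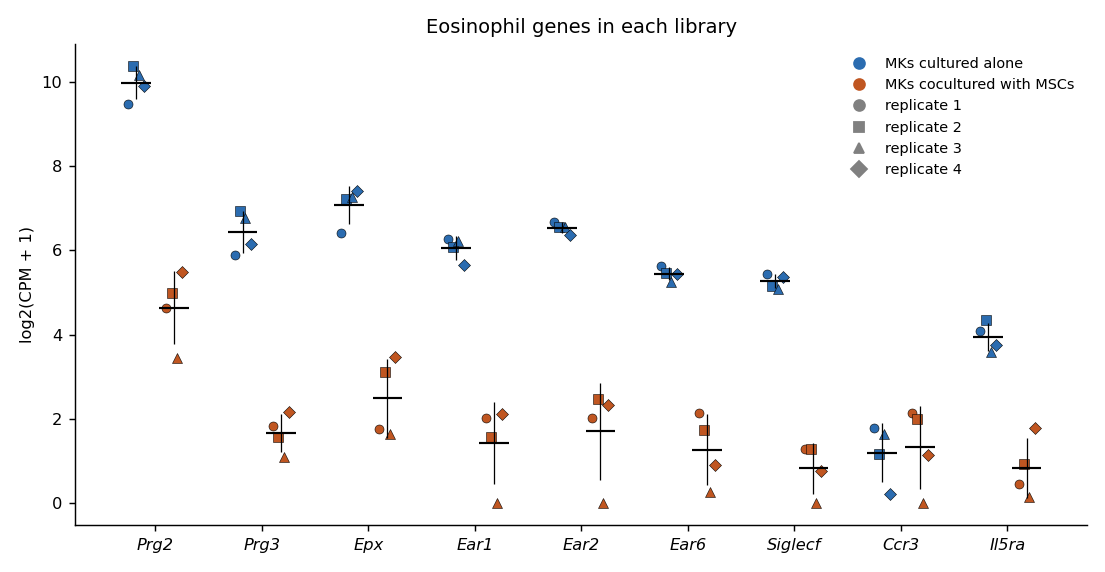
Levels of the 9 eosinophil genes on a log2(CPM + 1) scale (y axis) in each library of MKs cultured alone (blue) and of cocultures with MSCs (orange). Symbols mark replicates, horizontal bars the group means and vertical lines the SD (n = 4 each). The groups are separated for every gene except Ccr3, and replicate 3 of the cocultures is the lowest coculture for each gene.

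The fitted log2 fold changes of the 8 genes that were lower lay between -5.38 for Siglecf and -3.97 for Il5ra. The median over all 9 genes was -5.004, and -4.61 without replicate 3 of the cocultures, against 0.034 over all genes tested. The cocultures still contained these transcripts, with 95 to 254 counts of Prg2 in every library. Prg2 made up 62.4% to 71.6% of the summed level of the 9 genes in MKs cultured alone and 54.6% to 73.6% in cocultures.

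Genes of other marrow cells changed in the same libraries, and their part in the values of the eosinophil genes was not tested. All 15 neutrophil markers were called lower (fold change of at least 2, adjusted p of at most 0.05, edgeR), with a median log2 fold change of -3.29 and a range from -4.63 to -2.42. S100a8, the highest of them, was at -3.46 ± 0.42 (SE, adjusted p = 0.000565). Of 9 mast cell and basophil markers tested, 6 were called lower, and the median was -3.20 with a range from -4.97 to -0.33. The highest of these was Cpa3, which encodes a mast cell carboxypeptidase, at -4.26 ± 0.43 (adjusted p = 0.000205). Not called were Mcpt8 at -0.33 and Gzmb at -0.78, whose groups overlapped, and Prss34 at -2.44. Of 9 B cell markers, 4 were called lower with a median of -2.003, and Ms4a1, which encodes CD20, was the highest, at -2.82 ± 0.70 (adjusted p = 0.0196). The call of Ms4a1 was lost without replicate 1 of MKs cultured alone or replicate 2 of the cocultures. Across all genes 7.31% were called lower. The 8 lower eosinophil genes met the same cutoffs, from which nothing is read because they were selected on this contrast.

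Markers of MSCs and of macrophages were higher in cocultures, and the source of the macrophage transcripts was not tested. Across all genes 13.2% were called higher. Of 9 MSC markers tested, 7 were called higher with a median log2 fold change of 6.89, and the summed level was 60.03 to 76.6 CPM in MKs cultured alone and 3489 to 5509 CPM in cocultures. Acta2, which encodes smooth muscle actin, was the highest, at 5.56 ± 0.37 (SE, adjusted p = 2.65e-05). Pdgfra, which encodes the PDGFRα used in the sort, was at or below 0.515 CPM in MKs cultured alone and at 34.8, 26.6, 0.209 and 24.8 CPM in the 4 cocultures. Lepr, the leptin receptor gene that many marrow MSCs express, was at or below 0.325 CPM in MKs cultured alone and at 3.03, 2.34, 0 and 0.694 CPM in cocultures. Of 9 macrophage markers tested, 8 were called higher with a median of 3.16, and the summed level was 141 to 217 CPM against 987 to 1469 CPM. Csf1r, the receptor for macrophage colony-stimulating factor, had the highest mean level over all 8 libraries and the lowest fold change of these, at 1.33 ± 0.30 (adjusted p = 0.0127). Of 5 erythroid markers tested, none was called and 3 had negative values, with Hbb-bs, the highest in mean level over all 8 libraries, at 0.61 ± 1.11 (adjusted p = 0.733). Without replicate 3 of the cocultures Hbb-bs was at -1.999 and 5 erythroid markers were called lower, as were 1890 of all 12267 genes then tested.

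**Figure D3:**
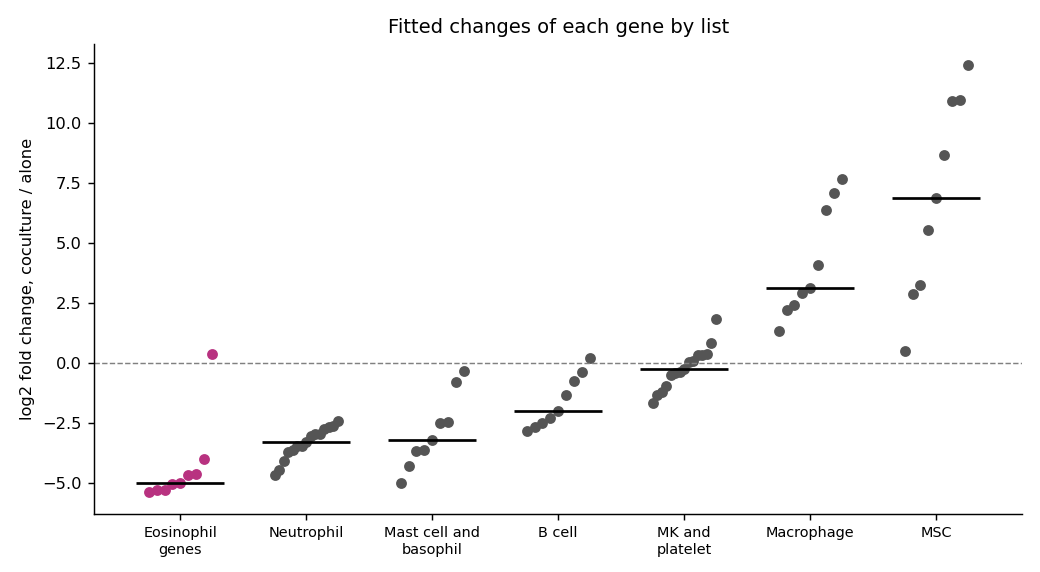
Fitted log2 fold change of each gene (y axis, coculture over MKs cultured alone) for the 9 eosinophil genes (pink) and the tested markers of other cells (grey). Horizontal bars mark medians, at -5.004 for the eosinophil genes, -3.29 for neutrophils, -3.20 for mast cells and basophils, -2.003 for B cells, -0.24 for MKs and platelets, 3.16 for macrophages and 6.89 for MSCs. The eosinophil genes were selected on this contrast, so their median is not compared with the others. Single markers of other cells reached -4.97 for Ms4a2 of mast cells and basophils and -4.63 for Mpo of neutrophils.

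A further list held 53 genes of eosinophil biology that are not among the 9, of which 35 were tested. They differed in direction among themselves. By edgeR's quasi-likelihood test, 8 were called lower, 9 higher and 18 not called. The called shares were 22.9% and 25.7%, against 7.31% and 13.2% of all genes. The median log2 fold change was -0.51. Without replicate 3 of the cocultures, 14 were called lower and 11 higher. Calls over all genes rose as well, from 857 to 1890 lower and from 1544 to 2530 higher, of 12267 genes then tested.

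Of 6 tested genes of lipid mediators, 3 were called lower and 1 higher (50% and 16.7%, against 7.31% and 13.2% of all genes). Alox15, which encodes the 15-lipoxygenase that eosinophils use to oxidize arachidonic acid, had 9.05, 7.94, 4.10 and 5.53 CPM in MKs cultured alone and 0.663, 0.912, 0.314 and 0.347 CPM in cocultures. It fell by 3.53 ± 0.65 (SE) on the log2 scale (edgeR, adjusted p = 0.00471). Alox5ap, the protein that presents arachidonic acid to 5-lipoxygenase, fell by 1.92 ± 0.21 (adjusted p = 0.000289) and was the highest gene of this group, from 524 ± 30.8 to 139 ± 35.9 CPM (SD, n = 4). Alox5, the 5-lipoxygenase itself, fell by 2.32 ± 0.73 (adjusted p = 0.0492), and its call was lost when any library other than replicate 3 of the cocultures was left out. Hpgds, which makes prostaglandin D2, rose by 3.27 ± 0.57 (adjusted p = 0.00399). Cysltr1 and Cysltr2, receptors for cysteinyl leukotrienes, were not called.

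Cytokine receptors and adhesion molecules were divided. Csf2rb, the beta chain that IL-5, IL-3 and GM-CSF receptors share, had 113, 176, 151 and 129 CPM in MKs cultured alone and 59.3, 56.9, 27.8 and 63.8 CPM in cocultures. It fell by 1.45 ± 0.29 (edgeR, adjusted p = 0.00807), and its partner Il5ra was at -3.97, a difference between genes that was not tested. The call of Csf2rb was lost when libraries were scaled to MK and platelet markers. Itgam, the alpha chain of the integrin Mac-1 on granulocytes and macrophages, had the highest mean level of this group over all 8 libraries and fell by 1.97 ± 0.16 (adjusted p = 5.7e-05). Itga4, the alpha chain of VLA-4, fell by 1.46 ± 0.36 (adjusted p = 0.0189), a call that was lost without replicate 1 or 2 of MKs cultured alone or replicate 1, 2 or 4 of the cocultures.

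Higher in cocultures were 3 surface genes that macrophages or mast cells also carry. Adgre1, which encodes F4/80, rose by 2.47 ± 0.27 (edgeR, adjusted p = 0.000301). The complement receptor gene C3ar1 rose by 3.11 ± 0.55 (adjusted p = 0.00404), and Il1rl1, which encodes the IL-33 receptor, rose by 1.77 ± 0.31 (adjusted p = 0.00404). The remaining 6 tested genes of this group, among them Csf2ra and Il3ra, were not called. Without replicate 3 of the cocultures Adgre4, an adhesion receptor, was called lower at -2.12, as was Hrh4 at -2.54.

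Of 11 transcription factors and other regulators of eosinophil development, 2 were called lower and 2 higher. These were 18.2% each, against 7.31% lower and 13.2% higher over all genes. Without replicate 3 of the cocultures 5 were called lower and 2 higher, and calls over all 12267 genes then tested rose to 1890 lower and 2530 higher. Cebpe, a factor of terminal granulocyte maturation, had 46.3, 78.4, 103 and 94.0 CPM in MKs cultured alone and 8.72, 9.38, 1.67 and 17.0 CPM in cocultures. It fell by 3.13 ± 0.63 (edgeR, adjusted p = 0.00753). Gata2, which also acts in mast cells and MK precursors, fell by 1.65 ± 0.28 (adjusted p = 0.00344). Gata1, which is needed for eosinophils as well as for MKs, had 74.3 ± 14.5 CPM in MKs cultured alone and 43.7 ± 25.9 CPM in cocultures, a log2 fold change of -0.76 ± 0.39 (adjusted p = 0.197). Without replicate 3 of the cocultures Gata1 was called lower at -1.29, as were Spi1, which encodes PU.1, at -1.5001 and Trib1, a pseudokinase of myeloid differentiation, at -1.79. Xbp1, which eosinophil precursors need, was the highest of these genes and had a log2 fold change of -0.79 ± 0.18 (adjusted p = 0.0126), below the cutoff of 2-fold.

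Cebpb and Id2 rose. Cebpb, a factor induced in inflamed myeloid and stromal cells, rose by 2.38 ± 0.55 (edgeR, adjusted p = 0.0148). The call was lost without replicate 1 or 2 of MKs cultured alone. Replicate 3 of the cocultures had 447 CPM of Cebpb, against 86.9 to 180 CPM in the other cocultures. With single libraries left out, the log2 fold change of Cebpb went down to 1.61. Id2, an inhibitor of helix-loop-helix factors, rose by 1.81 ± 0.29 (adjusted p = 0.00264).

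Among ligands, Ccl7, a chemokine that binds CCR3, had 0, 0, 0 and 2 counts in MKs cultured alone and 673, 613, 392 and 497 CPM in cocultures. The ratio of the group sums was 8066 with a 95% counting interval from 2233 to 66610, and the gene was called higher (edgeR, adjusted p = 1.51e-05). Ccl5, another ligand of CCR3, rose by 2.07 ± 0.62 (adjusted p = 0.0415), but the call was lost without any single library of MKs cultured alone or without replicate 4 of the cocultures. Ccl8 had no count in MKs cultured alone and 178 counts in cocultures and did not pass the filter with all libraries. Without replicate 3 of the cocultures, which had no count of it, Ccl8 was tested and called higher (edgeR, adjusted p = 2.13e-06), and Tslp, which encodes an epithelial cytokine, was called lower at -1.64. Il5, Ccl11, Ccl24 and Il33 were not analysed here. Ccl7 and Ccl5 were higher in cocultures, as were MSC and macrophage markers, whose part was not tested. Among the cocultures, replicate 3 had the most Ccl5 but the least of the MSC marker Col1a1, at 115 CPM. Acta2, another MSC marker, was highest in that library, at 2312 CPM.

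Of the other ribonucleases, Rnase4, which is made by many tissues, rose by 3.68 ± 0.49 (edgeR, adjusted p = 0.000928), from 4.44 ± 1.11 to 56.7 ± 28.2 CPM. Ang was not called with all libraries and was called higher without replicate 3 of the cocultures, at 1.70, and other members of the Ear family were not analysed here.

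**Figure D4:**
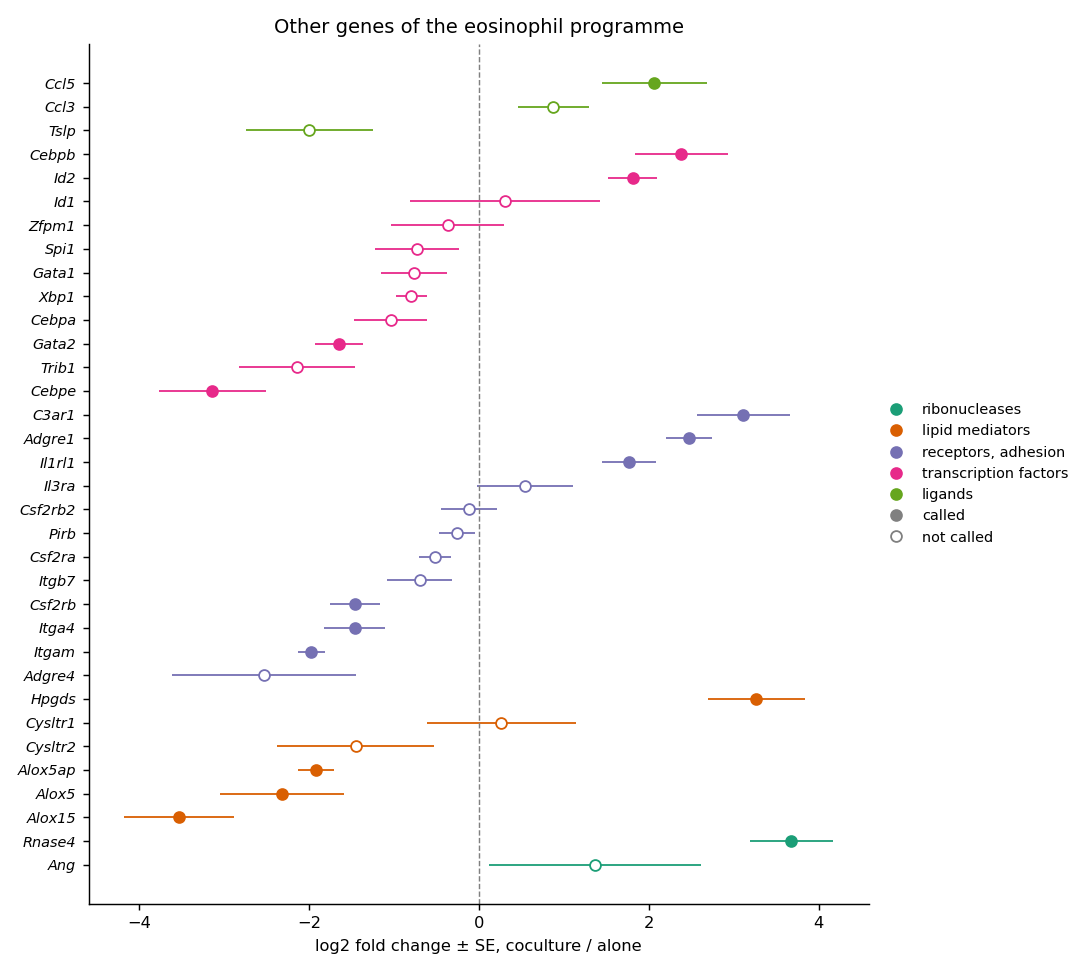
Fitted log2 fold change (x axis, coculture over MKs cultured alone, bars ± SE) of 34 further genes of eosinophil biology, grouped by role. Filled points were called by edgeR and open points were not. Ccl7 is left out because it was nearly absent from MKs cultured alone. Points lie on both sides of 0, from -3.53 for Alox15 to 3.68 for Rnase4.

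The genes with the profile most like that of the 9 genes were sought among 9616 other genes with a mean of at least 10 CPM in either group. The 10 highest Pearson correlations with their mean profile, over 8 libraries on the log2(CPM + 1) scale, lay between 0.995 and 0.998. All points share the difference between cultures and the low values of replicate 3 of the cocultures, so the correlations are a description. In order, these genes were Cxcr2, Chil3, Naa60, Ly6g, Ctsg, Nlrp12, Ceacam1, Tmem131l, Acpp and Casp2. Cxcr2, a chemokine receptor of neutrophils, was highest and went from 285 ± 25.3 to 29.1 ± 10.7 CPM (SD, n = 4). Ly6g, a surface marker of neutrophils, went from 137 ± 24.5 to 5.30 ± 3.22 CPM, and Ctsg, which encodes the azurophil protease cathepsin G, from 171 ± 37.4 to 10.3 ± 4.77 CPM. All 10 were lower in cocultures, which the choice by this profile fixes, so no test is given.

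Promoters of the genes were compared because the genes were low together. RefSeq promoters (GRCm38.p6, 250 bases before to 50 after the start) were at hand for 8 of the genes. The letters GATAA, a core that GATA factors bind, occurred on either strand in 7 of these 8 promoters and in 25.4% of the 32851 promoters in the table. The letters GAGGAA, a core bound by PU.1, occurred in 3 of 8 against 28.3%, and TTGCNNAA, a form of the C/EBP site, in 2 of 8 against 10.8%. The 2 promoters with TTGCNNAA were those of Ear1 and Ear2, which are nearly the same sequence. Epx was the gene without GATAA, and Ccr3, which was not lower, had it. The Ear1 and Ear2 promoters were 99% identical over 297 aligned bases and Ear6 was 92.8% identical to each, so these 3 are not independent. A match is a description of the letters and not a binding site. The promoters of Prg3 (chr2:84987965-84988264, plus strand), Ear1 (chr14:43819590-43819889, minus strand), Siglecf (chr7:43351091-43351390, plus strand) and Il5ra (chr6:106748988-106749287, minus strand) show where GATAA or its reverse complement TTATC, in capitals, lies in a granule gene, a ribonuclease gene and both surface genes that were lower, each 5′ to 3′ on the strand of the gene.
Prg3: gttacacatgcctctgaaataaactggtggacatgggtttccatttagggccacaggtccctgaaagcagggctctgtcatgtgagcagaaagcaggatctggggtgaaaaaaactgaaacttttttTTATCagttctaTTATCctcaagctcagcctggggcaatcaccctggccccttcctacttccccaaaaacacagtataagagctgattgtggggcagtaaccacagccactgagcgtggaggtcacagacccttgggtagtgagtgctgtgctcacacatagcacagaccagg
Ear1: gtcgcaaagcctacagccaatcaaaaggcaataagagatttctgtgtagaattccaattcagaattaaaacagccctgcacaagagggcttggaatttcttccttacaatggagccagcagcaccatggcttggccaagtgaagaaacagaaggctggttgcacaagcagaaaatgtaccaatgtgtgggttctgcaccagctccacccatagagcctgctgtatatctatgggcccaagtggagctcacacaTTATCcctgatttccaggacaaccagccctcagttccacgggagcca
Siglecf: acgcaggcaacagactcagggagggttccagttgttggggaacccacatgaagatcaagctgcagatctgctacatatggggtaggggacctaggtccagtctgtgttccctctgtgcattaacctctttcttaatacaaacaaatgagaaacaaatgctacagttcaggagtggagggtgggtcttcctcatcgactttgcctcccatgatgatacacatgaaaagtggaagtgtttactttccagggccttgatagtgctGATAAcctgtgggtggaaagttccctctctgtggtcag
Il5ra: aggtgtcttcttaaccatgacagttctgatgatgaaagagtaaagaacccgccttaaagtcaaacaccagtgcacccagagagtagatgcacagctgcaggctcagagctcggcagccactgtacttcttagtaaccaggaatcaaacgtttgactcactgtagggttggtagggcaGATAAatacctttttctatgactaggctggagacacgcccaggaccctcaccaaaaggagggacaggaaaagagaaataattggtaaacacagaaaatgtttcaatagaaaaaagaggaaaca
Prg3 held 2 matches and the others 1 each. Those of Prg3 and Il5ra lie before the start, whereas those of Ear1 and Siglecf begin 3 and 12 bases after it. The matches of Ear2 and Ear6 also lie after the start, at 6 and 2 bases. The Ear1 promoter lies inside the GENCODE span of the gene, so it belongs to a start other than the 5′ end of that span.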

How the data were processed

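Bulk RNA-Seq was performed by the authors on paired-end SMART-Seq HT libraries. After fastp had removed poor reads, kallisto with an mm10 transcript index was used by the authors, and the deposited values are raw counts per gene. How transcripts were combined into genes, and the strand setting, are not given in the sources used here. Groups and replicate numbers came from the labels.

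Counts were tested with the quasi-likelihood test of edgeR 4.0.16 (R 4.3.3), with TMM scaling, filterByExpr and all 8 libraries in 1 fit without a covariate. Standard errors were derived from the F statistic. A call needed a 2-fold difference, 0.05 or less after Benjamini-Hochberg adjustment across the 11722 genes tested, and a mean of 1 CPM in either group, after the cutoffs of the study with CPM in place of TPM. The members and lists were chosen with earlier results of these data known. The genes named were all members, every called gene of the eosinophil lists and, by mean CPM over all 8 libraries, the highest of each role and of each marker list and the 10 genes with the most similar profile. Other genes named, among them Mpo, Hrh4, Ccl8, Pdgfra and Lepr, were chosen after their values were seen. Exon lengths and positions came from GENCODE vM21 (GRCm38, the build of mm10). Counting intervals are exact and cover counting error only, since reads carry no molecular identifiers. The methods state pooled wells and a legend 4 mice per group, but no label ties a library to a mouse, so p values measure the spread between these libraries. Alternatives were DESeq2 1.42.0, other scalings, other filters, the replicate number as a block and each library left out. The fits were tested on simulated data. The authors' design included a batch that the sources used here do not name.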

Additional observations from a re-analysis of the deposited data

Results flagged for a closer look

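Each of 60 groups of 4 libraries was examined for a library far from the other 3, over the 9 eosinophil genes, the called genes of the further eosinophil list and 4 list scores. Such a library was found in 7 groups, where chance gives about 3, and in 5 cases it was coculture replicate 3. On the log2(CPM + 1) scale the mean of the 9 eosinophil genes was 0.734 in that library and 2.03 to 2.24 in the other cocultures. The B cell score was 3.17 there against 4.26 to 4.36. Alox5 was at 1.36 against 4.86 to 5.31, Csf2rb at 4.85 against 5.86 to 6.02, and C3ar1 at 5.62 against 7.96 to 8.25. In MKs cultured alone, Itga4 was at 7.22 in replicate 1 against 6.41 to 6.51 in the others. Ccl7 was at 0.406 in replicate 4 and at 0 in the other 3.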

How the results depend on the processing

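The 8 eosinophil genes other than Ccr3 kept a negative log2 fold change in every alternative in which they could be fitted. These genes were selected on this contrast and their groups did not overlap, so the kept sign is no check. Requiring 10 counts or more in each library left 3 of the 9 genes, because it removes genes that are low in cocultures. Scaling to MK and platelet markers moved the median of all genes from 0.034 to 0.57. It gave medians of -4.45 for the 9 genes, -2.76 for neutrophil and -1.52 for B cell markers. Relative to all genes the 9 genes were then at -5.02, against -5.04 with TMM factors. Scaling shifts all genes nearly alike, so this near equality was fixed in advance and is no check. Rap1b held most of the marker sum in MKs cultured alone, so the marker scaling depends largely on that gene. The marker scaling called 384 genes lower and 2593 higher, against 857 and 1544, and 5 further eosinophil genes lower. Leaving out each library in turn, the 9 genes had medians from -5.19 to -4.61, and those of the neutrophil, mast cell and basophil, and B cell lists from -3.38 to -3.19, -3.60 to -2.80 and -2.13 to -1.82. The further eosinophil genes called lower then numbered 6 to 14, those called higher 7 to 11, and all called genes 1634 to 4420 against 2401, the highest without replicate 3 of the cocultures. DESeq2 called 3116 genes (1259 lower, 1857 higher) and the strict filter 1904. Same-numbered libraries correlated at r = 0.37, 0.020, 0.15 and 0.028 across genes, and cocultures 2 and 4 correlated better with another number, so the numbers were not taken to pair them. With the replicate block 1669 genes were called (573 lower, 1096 higher), the median of the 9 genes was -5.31, the calls of Alox5, Itga4, Ccl5, Ms4a1 and Nlrp12 were lost, and Hbb-bs was at -1.22, reversed in sign as it was without replicate 3 of the cocultures (-1.999). Without single libraries Hbb-bs ran from -1.999 to 1.07. Among named genes outside the 9, 37 values no longer met the cutoffs, 3 newly met them, 2 changed sign and 477 kept their direction and call. The causes were not tested. Low counts limit Siglecf, Il5ra and the Ear genes in cocultures, where 3 counts are up to 0.520 CPM. The zeros of Ear1, Ear2 and Siglecf were in coculture replicate 3, which had the highest total count of all libraries.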
